A study of Microhyla fissipes with 12 samples.

Results

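In the dorsal muscle of the frog Microhyla fissipes, 28 of 468578 unigenes had a short-lived maximum at developmental stage 43. A unigene is a transcript of a catalogue assembled from reads without a genome. The 28 were chosen by their FPKM, a level that divides the fragments mapped to a unigene by its length and by the depth of the library. In each, the lowest of the 3 stage 43 libraries reached an FPKM of at least 5 and at least 2 times the highest of the 9 libraries of the other stages. The peak itself is therefore how the unigenes were found, and its size is given below as a description, without a test.

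Tadpoles fed spirulina powder were sampled at 4 stages, 36, 40, 43 and 45, named S36, S40, S43 and S45 here, with 3 libraries of dorsal muscle messenger RNA each. The labels name no treatment or strain and do not say how many animals a library holds, so the p-values below reflect variation from library to library and not necessarily from animal to animal. S45 replicates 2 and 3 were alike to within about the noise of sampling. They count as 1 sample in the fit between stages and in the S45 means behind the ratios below. The rule and the counts of single libraries use all 3 S45 libraries. The table pairs no unigene ID with a gene name, so the labelled tissue was not checked against muscle markers, and sequences and pathways were not analysed here. The unigenes are called by their rank in mean FPKM at S43, from rank 1 to rank 28.

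Frog metamorphosis is driven by thyroid hormone and ends in climax, when the tail is resorbed. In Xenopus laevis, larval fibres of the trunk muscle are lost in this period while adult fibres form, so that breakdown and new growth run side by side in the same muscle. In the widely used scheme of Gosner, climax opens when the forelimbs emerge, and the labels do not say which scheme of stages was used. In bulk tissue such as this, a change in the number of cells of a type and a change in the RNA of each cell cannot be told apart.

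A peak of this kind was rare. Of the 468578 unigenes, 0.00598% met the rule, and of the 12080 with at least 5 FPKM in every S43 library, 28 did (0.232%). A weaker condition, that each S43 library be higher than every other library by any amount, was met by 615 of the 12080. Turned to another stage, the same rule found 2 unigenes at S36, 5 at S40 and 464 at S45. These are 0.015%, 0.032% and 2.08% of the unigenes with at least 5 FPKM in every library of that stage. The S45 libraries include a near-identical pair, and S45 is the last stage sampled, so a later course is not seen. At 10 to 30 FPKM the S43 libraries were less alike than those of any other stage, and the rule takes the lowest of them. How far this moves the counts between stages was not tested.

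The count rests on every S43 library. It was 213, 199 and 154 without S43 replicates 1, 2 and 3, 64 when S45 replicate 1 was left out, and between 28 and 38 for each remaining library. All 28 stay in each of these sets by construction, because leaving out a library can only add unigenes. With median-ratio scaling of the libraries before the rule 89 unigenes met it, 26 of the 28 among them. With quantile normalization 27 met it, 19 of the 28 among them.

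**Figure D1:**
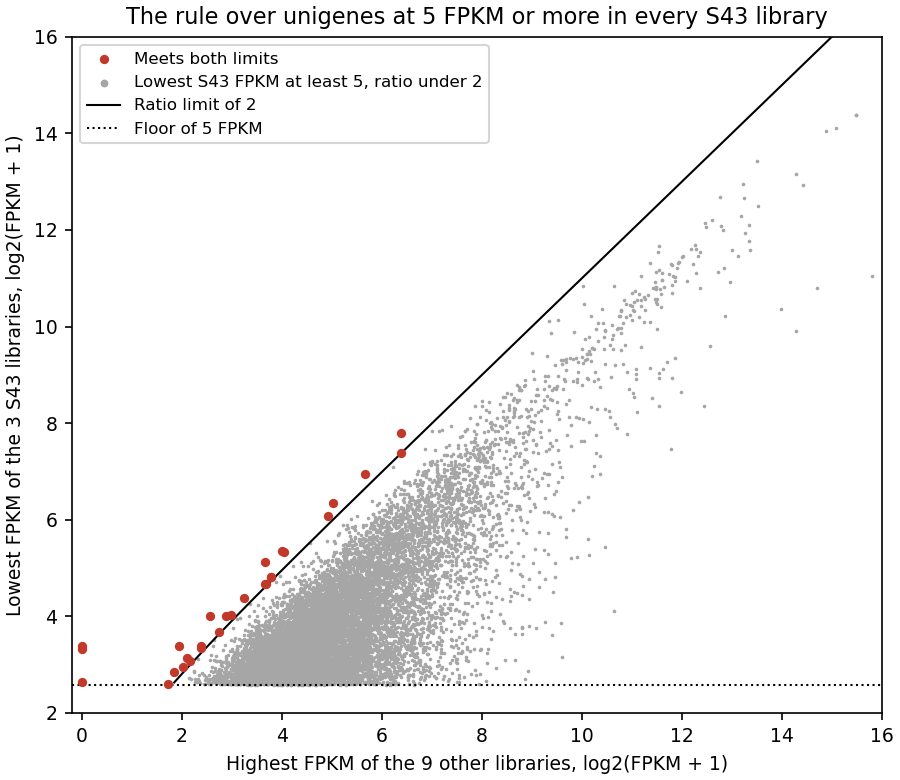
Lowest FPKM of the 3 S43 libraries (vertical axis) against the highest FPKM of the 9 other libraries (horizontal axis), both as log2(FPKM + 1), for the 12080 unigenes with at least 5 FPKM in every S43 library. The 28 red points lie on or above the line that marks a ratio of 2, 3 of them at a value of 0 on the horizontal axis; the grey cloud lies below the line.

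The unigenes just on either side of the limits were close in value. Just inside the ratio limit stood rank 2, with a lowest S43 FPKM of 166.1 against a highest other FPKM of 82.43, a ratio of 2.02. The next had ratios of 2.07 (24.57 against 11.85) and 2.08 (24.34 against 11.73). Just outside were unigenes at ratios of 1.99 (10.38 against 5.21), 1.98 (44.8 against 22.68) and 1.96 (18.18 against 9.29). At the floor of 5 FPKM, the lowest S43 values just inside were 5.01, 5.19 and 6.19, and those just outside, at a sufficient ratio, were 4.94, 4.67 and 4.51.

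The 28 unigenes spanned a moderate range of abundance. Their mean FPKM at S43 ran from 6.8 to 287.1, with a median of 24.6. It was at least 100 for 4, from 10 to under 100 for 21 and under 10 for 3. In the whole table, 1314 unigenes reached a mean of 100 at S43, these 4 included. Summed over the 28, their FPKM made up 0.0052% to 0.0098% of the library total at S36, 0.0101% to 0.0131% at S40, 0.0867% to 0.0983% at S43 and 0.0207% to 0.0246% at S45. Ranks 1 to 5 held 59.9% of the summed S43 mean.

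**Figure D2:**
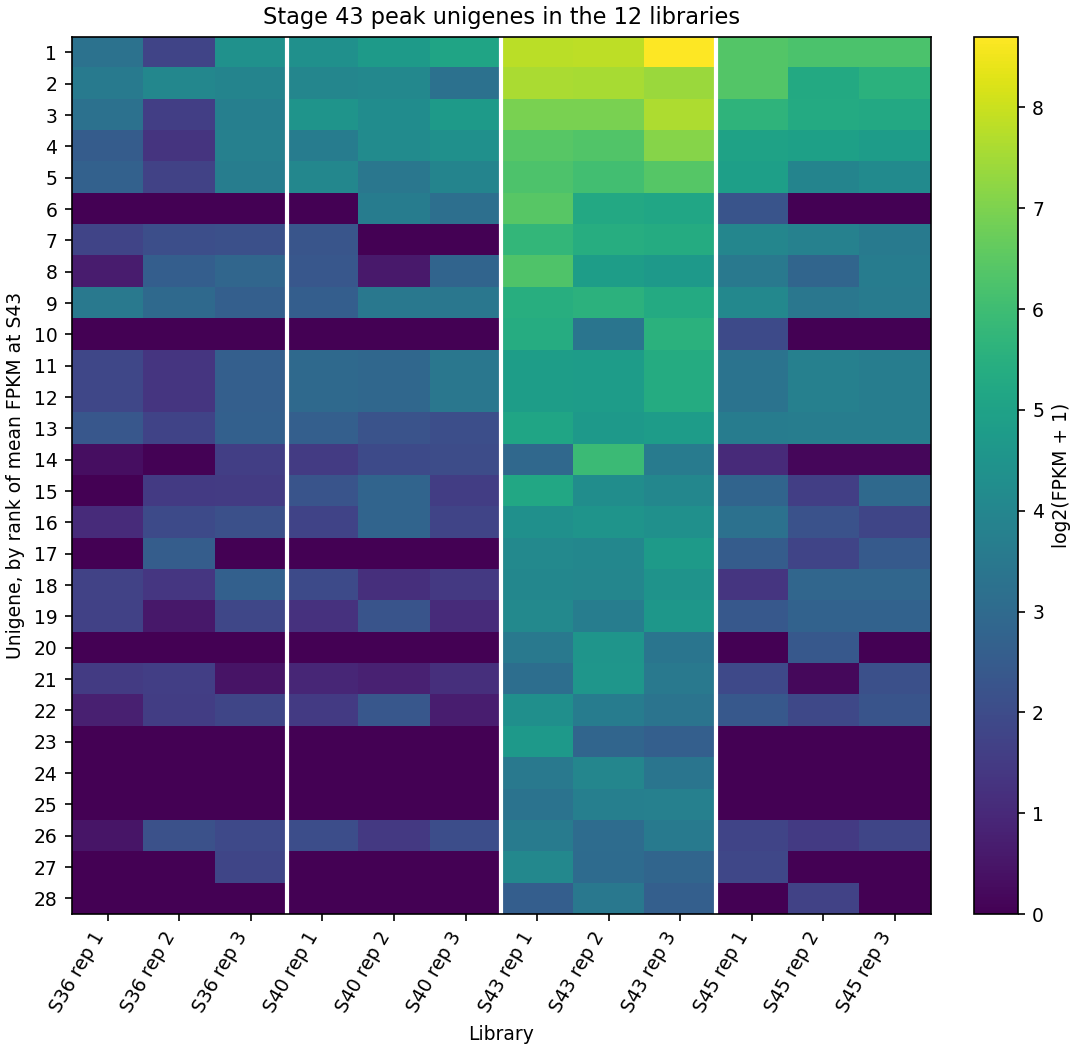
Level of the 28 stage 43 peak unigenes, as log2(FPKM + 1), in the 12 libraries (columns, by stage from S36 to S45), with rows in order of mean FPKM at S43. The S43 columns are the brightest of each row, the S45 columns come next in most rows, and ranks 23, 24 and 25 are at 0 outside S43.

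The highest of the 28, rank 1, was Cluster-199519.69975. It had 8.81, 2.47 and 20.14 FPKM in the S36 libraries, 19.5, 25.45 and 32.63 at S40, 220.04, 225.95 and 415.22 at S43 and 82.37, 74.33 and 74.26 at S45. The 4 stages did not overlap except for S36 and S40, where the highest S36 library lay above the lowest of S40. The S43 mean was 27.4 times the S36 mean, 11.1 times the S40 mean and 3.67 times the S45 mean. By abundance it stood at place 13742, 38186 and 5690 of all unigenes in the S36 libraries and at place 548, 567 and 347 in those of S43.

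Rank 2, Cluster-199519.36515, was flat before the peak. It had 11.01, 15.27 and 14.3 FPKM at S36 and 14.87, 15.88 and 8.56 at S40, then 193.24, 187.28 and 166.1 at S43 and 82.43, 38.17 and 45.83 at S45. The S36 and S40 libraries overlapped, and the S43 libraries were close to each other, the highest being 1.16 times the lowest. The S43 mean was 13.5 times that of S36, 13.9 times that of S40 and 2.93 times that of S45.

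Ranks 3 and 4 carry consecutive numbers in the same assembly cluster and had a like course. Rank 3, Cluster-199519.123468, had 8.44, 2.04 and 12.49 FPKM at S36, 21.62, 17.79 and 25.78 at S40, 123.44, 121.78 and 197.3 at S43 and 49.91, 38.86 and 37.18 at S45. Rank 4 had 4.78, 1.45 and 12.83 at S36, 11.73, 17.35 and 19.78 at S40, 85.2, 79.88 and 137.68 at S43 and 31.45, 29.49 and 27.09 at S45. Rank 3 stood at 0.97 to 1.84 times the FPKM of rank 4 in the 12 libraries. Rank 1 stood at 0.9 to 2.1 times rank 3 over the same libraries, and like rank 3 it was lowest in S36 replicate 2 and highest in S43 replicate 3. Ranks 4, 5, 11, 12 and 19 had their lowest and highest values in the same 2 libraries, so this is not particular to ranks 1 and 3. Whether these are transcripts of the same gene is not given in the table, so they cannot be counted as independent evidence of each other.

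Rank 5 had 5.51, 2.25 and 11.84 FPKM at S36, 15.35, 10 and 14.09 at S40, 75.66, 66.63 and 83.55 at S43 and 29.31, 14.19 and 17.11 at S45. Its S45 libraries overlapped those of S40. Rank 6 differed from the first 5 in that its FPKM was a listed 0 in every S36 library and in S40 replicate 1, with 11.7 and 8.05 in S40 replicates 2 and 3, 85.46, 36.8 and 34.08 at S43, 3.78 in S45 replicate 1 and 0 in S45 replicates 2 and 3. Its level at S45 was thus below that of the S40 libraries in which it was found. A listed 0 can be a failed estimate in an assembly with many like transcripts, so no ratio of means is given for a stage with a library at 0. The differences in log2(FPKM + 1) further below do include such libraries.

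Rank 7 was listed at 0 in 2 of the 3 S40 libraries, with 2.42, 3.26 and 3.32 FPKM at S36, 3.87, 0 and 0 at S40, 52.85, 41.66 and 39.58 at S43 and 15.05, 13.15 and 11.14 at S45. Rank 8 had 0.6, 5.07 and 6.27 at S36, 4.09, 0.51 and 6.02 at S40, 77.87, 27.41 and 24.34 at S43 and 10.34, 6.12 and 11.73 at S45, so that S43 replicate 1 stood far above the other two S43 libraries. Rank 9 had 10.56, 6.86 and 5.15 at S36, 5.05, 10.25 and 9.84 at S40, 42.59, 47.09 and 39.37 at S43 and 15.53, 9.84 and 11.32 at S45. Of ranks 7, 8 and 9, rank 9 had the smallest ratio of the S43 mean to the S36 mean, 5.72, beside 14.9 for rank 7 and 10.9 for rank 8.

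Rank 10 was listed at 0 in the 6 libraries of S36 and S40. It had 40.38, 9.44 and 45.99 FPKM at S43, 2.84 in S45 replicate 1 and 0 in S45 replicates 2 and 3. Its lowest S43 value was 3.32 times its highest other value, the largest such ratio among the 25 unigenes with a value above 0 outside S43. The next were 3.1 for rank 17, 2.91 for rank 6, 2.67 for rank 1 and 2.63 for rank 7, and the median over the 25 was 2.27.

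**Figure D3:**
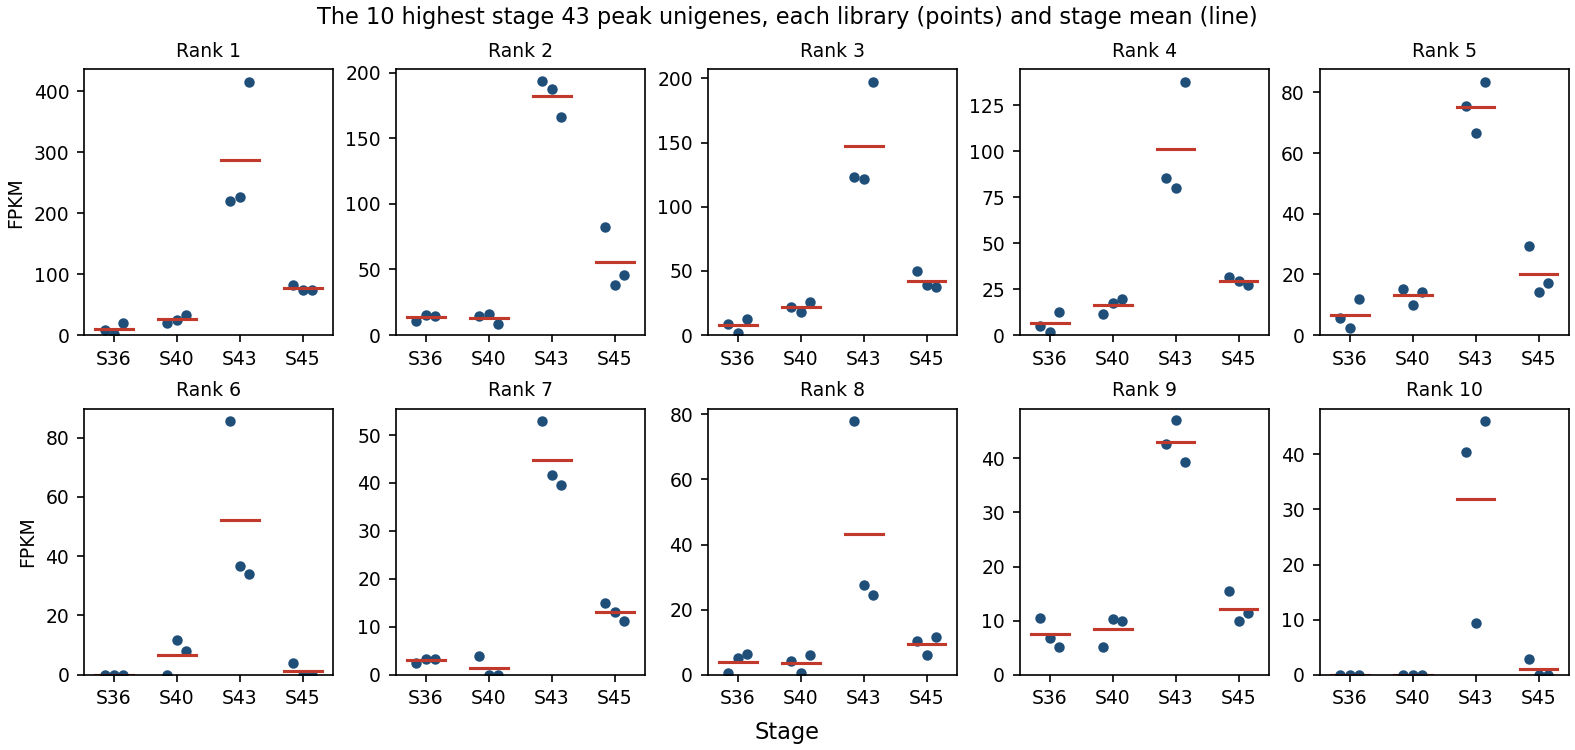
FPKM of ranks 1 to 10 in each library (points, replicates 1 to 3 from left to right) and the mean of the 3 libraries (red line) at S36, S40, S43 and S45, each panel on its own axis from 0. In ranks 1 to 5 the S45 libraries lie between the early stages and S43 with some overlap at rank 5, while ranks 6 and 10 are at or near 0 at S45. Rank 6 had 11.7 and 8.05 FPKM in S40 replicates 2 and 3.

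Ranks 11 and 12 had the same value in every one of the 12 libraries, 27.85, 27.19 and 39.62 FPKM at S43 and 9.05, 12.67 and 11.79 at S45, so the 28 unigenes hold 27 distinct profiles. Among all unigenes at 1 FPKM or more in at least 3 libraries, 0.115% shared all 12 values with another. Ranks 20 and 24 shared the values 10.44 in S43 replicate 1 and 9.41 in S43 replicate 3. In S43 replicate 2 rank 24 had 14.81 and rank 20 had 22.22, a ratio of 0.667, which is 2 to 3 within rounding. The number of fragments behind these values is not part of the table.

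By how many of the 9 libraries outside S43 list them at 0, the 28 fall into 3 kinds, which are not courses over the stages. A first kind of 17, with ranks 1 to 5 among them, had a value above 0 in every library. A second kind of 8 was listed at 0 in some of the 9 libraries outside S43 and above 0 in others. The third kind, ranks 23, 24 and 25, was listed at 0 in all 9. These had 24.71, 6.1 and 5.19 FPKM (rank 23), 10.44, 14.81 and 9.41 (rank 24) and 8.96, 12.59 and 12.75 (rank 25) in S43 replicates 1, 2 and 3. In all, 6 of the 28 were at 0 in each S36 and S40 library, and 3 of these had a value in an S45 library.

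The S43 libraries did not give the 28 the same weight. The highest of the 3 was S43 replicate 1 for 10 unigenes, replicate 2 for 7 and replicate 3 for 11. The highest S43 value was 1.11 to 8.94 times the lowest, with a median of 1.72. It was under 1.5 times for 10 unigenes and at least 2 times for 11. Of those 11, S43 replicate 1 was the highest in 6, replicate 2 in 4 and replicate 3 in 1. The widest gap was that of rank 14, with 6.7, 59.88 and 11.2 FPKM at S43, after 0.25, 0.03 and 2.06 at S36 and 1.85, 2.92 and 3.05 at S40, and 1.03, 0.1 and 0.11 at S45. Its mean at S43 thus rests mostly on replicate 2. The most even was rank 16, with 19.82, 21.84 and 19.7.

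For most of the unigenes found in every library, the S43 mean stood closer to the S45 mean than to the S36 or S40 mean. Over these 17 the median ratio of the S43 mean was 10.2 to S36, 6.79 to S40 and 3.42 to S45, and ranks 14 and 26 were the exceptions. These ratios are on FPKM as deposited, and like medians over all unigenes are not given. Median-ratio scaling divides the S45 libraries by 1.38 to 1.4 and those of S36 and S40 by 0.84 to 1.19. It divides those of S43 by 0.81 to 1.05, so part of the pattern may be a shift of whole libraries, which was not tested. Among the 20 unigenes with a value above 0 in all S45 libraries, the S43 mean was 2.43 to 45.7 times the S45 mean, with a median of 3.48. Over the 18 with a value in all S40 libraries it was 3.68 to 14.2 times the S40 mean (median 6.49), and over the 18 with a value in all S36 libraries 4.46 to 33.2 times the S36 mean (median 10.2). The rule sets a lower bound to each of these ratios. The highest library outside S43 was one of S45 for 21 of the 25 unigenes found outside S43, S45 replicate 1 in 11 of them, and one of S36 or S40 for 2 each. These are 84.0% for S45 and 44.0% for S45 replicate 1, beside 62.0% and 33.6% of the 12077 unigenes with at least 5 FPKM in every S43 library and a value outside S43.

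Most of the 28 belonged to Cluster-199519, the largest group of the assembly, with 224984 unigenes. It held 27 of the 28, and the exception was rank 24. Of the 12080 unigenes with at least 5 FPKM in every S43 library, 99.8% lay in it, so the share among the 28 is close to that background. Total FPKM was 1219979 to 1688307 per library, and 68062 to 140066 unigenes per library reached an FPKM of 1. Outside the large cluster S43 replicate 3 had 56543 and S45 replicate 1 had 49802 such unigenes, against 8388 to 24966 in the other 10 libraries. Without both of these libraries 232 unigenes met the rule. Their part in the result was not tested.

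The levels at S36, S40 and S45 were compared in a fit without S43. These libraries entered the rule too, through the highest of their 9 values, which caps each of them alike. The rule sets no order among the 3 stages, but it does limit the size of the differences, so the counts below describe the 28 and are not evidence independent of how they were chosen. Of the 28, 21 passed the filter of at least 1 FPKM in at least 3 of the 9 libraries, 19 of them on S36 and S40 libraries alone. Ranks 6 and 17 passed only with S45 libraries, so counts over the 19 are given as well. The shares over all unigenes tested keep those that passed only with S45 libraries, so they are not filtered like the 19. The other 7, which did not exceed 4.24 FPKM outside S43 and had S43 means of 6.8 to 31.9, are described above by their values only. A unigene was called at a limma adjusted p under 0.05, by the Benjamini-Hochberg method over all 98837 unigenes tested, and a difference of at least 1 in log2(FPKM + 1). This scale understates the change of low unigenes.

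Between S45 and S36, ranks 1, 2 and 3 were called higher at S45 and none of the 21 lower. These 3 of 21 are 14.3% of the unigenes tested, against 6.96% called higher and 0.702% called lower among all 98837. Rank 1, Cluster-199519.69975, differed by 3.14 ± 0.65 (SE) in log2(FPKM + 1), limma adjusted p = 0.032. Rank 3, Cluster-199519.123468, differed by 2.61 ± 0.58, limma adjusted p = 0.0366. Rank 2, Cluster-199519.36515, differed by 2.06 ± 0.4, limma adjusted p = 0.0274. In each of the 3, every S45 library lay above every S36 library. As said above, ranks 1 and 3 cannot be counted as independent evidence of each other. Rank 4, with a difference of 2.41 ± 0.64, missed the threshold at limma adjusted p = 0.0558.

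Of the 21, 20 had a higher mean of log2(FPKM + 1) at S45 than at S36, against 71.3% of all unigenes tested. Their median difference was 1.4, from -0.08 to 3.14, beside a median of 0.52 over all unigenes tested. For 12 of the 21, all among the 19, every S45 library lay above every S36 library, against 30.5% of all unigenes tested. For none did every S45 library lie below, against 5.64%. These 12 include ranks 1, 3 and 4 and the identical ranks 11 and 12, so they are fewer than 12 independent profiles. FPKM at S45 were higher for most unigenes, and the 3 calls depended on the scaling, as did the share called over all unigenes tested. Under median-ratio scaling or quantile normalization, which bring the libraries to a common level, none of the 21 was called. Among all unigenes tested, 1.54% and 1.02% were then called higher, against 6.96% for the values as deposited. The median differences were 0.98 and 0.84 beside 0.12 and -0.07 over all unigenes tested.

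The number called also moved with single libraries. It was 0 without S36 replicate 1, where 1.26% of all unigenes tested were called higher, and 6 without S36 replicate 3 (3.86%). It was 1 without S40 replicate 3 (4.1%) and 0 without S45 replicate 1, where 0.00229% of all were called higher. Without each of the other libraries the number was 3 (1.34% to 7.22%). The members called were not always ranks 1, 2 and 3, since rank 2 was also lost without S36 replicate 2 or 3 and rank 3 without S40 replicate 1. With S45 replicates 2 and 3 as separate samples it was 8, beside 14.2% of all unigenes tested. With the S40 libraries left out of the fit none of the 98837 was called, the 21 included. At an unadjusted limma p under 0.05 it was 10 of the 21, each higher at S45 and each among the 19. Of all unigenes tested, 28.2% differed at this limit in either direction, and the share that was higher is not given. Ranks 1, 3, 4, 11 and 12 are among these 10, which are thus not 10 independent profiles. The median difference over the 19 was also 1.4, and 18 of them had the higher mean at S45.

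Between S45 and S40, 1 of the 21, rank 2, was called higher at S45 and none lower. This is 4.76%, against 1.51% called higher and 0.356% lower among all unigenes tested. Rank 2 differed by 2.13 ± 0.4 (SE) in log2(FPKM + 1), limma adjusted p = 0.0416, with every S45 library above every S40 library, but it passed in 7 of 23 alternatives. Its call was lost without any 1 of the 9 libraries, where the log2 difference was 1.65 to 2.28. The count was then 1 without S36 replicate 2, where rank 17 was called, beside 0.797% of all unigenes tested called higher. Rank 17 then passed the filter only through the S45 libraries, the group in which it was called higher, so this call supports nothing. The count was 1 without S40 replicate 1, where rank 7 was called (0.124%), and 0 without each of the others (0.00115% to 0.956%). Rank 7 had the largest difference, 3.1 ± 0.68, which missed the threshold at limma adjusted p = 0.0612. This difference ran from 2.67 to 5.32 over the 23 alternatives. Rank 7 was listed at 0 in S40 replicates 2 and 3, and rank 17 in every S40 library. Their differences therefore depend on the 1 FPKM added.

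The median difference of the 21 between S45 and S40 was 0.71, from -1.25 to 3.1, beside 0.4 over all unigenes tested. Under median-ratio scaling it was 0.4 beside 0.1 over all unigenes tested, and under quantile normalization 0.16 beside -0.09. Of the 21, 18 had a higher mean at S45, and of the 19, 17 did, against 69.7% of all unigenes tested. The median difference over the 19 was also 0.71. For 9 of the 21 and 8 of the 19 every S45 library lay above every S40 library and for 1, rank 14, every S45 library lay below, against 26.0% and 5.90% of all unigenes tested. Ranks 1, 3 and 4 are among both the 9 and the 8. At an unadjusted limma p under 0.05, 5 of the 21 and 4 of the 19 differed, each higher at S45. Of all unigenes tested, 20.4% differed at this limit in either direction. For 7 of the 21, each of them among the 19, every S45 library lay above all 6 libraries of S36 and S40. Ranks 1 to 4 are among these 7, and the share over all unigenes tested was 20.2%.

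Before the peak, between S40 and S36, none of the 21 was called by limma, against 0.00708% called higher and 0.00101% lower among all unigenes tested, which are 7 and 1 of 98837. At an unadjusted limma p under 0.05, 8 of the 21 and 7 of the 19 differed, each with the higher mean at S40. Of all unigenes tested, 5.32% differed at this limit in either direction. The 8 include ranks 1, 3 and 4 and the identical ranks 11 and 12, so they are fewer than 8 independent profiles. Rank 1 differed by 1.55 ± 0.58 (SE), limma adjusted p = 0.866, and rank 3 by 1.63 ± 0.52, with the same limma adjusted p. Of the 21, 15 had the higher mean at S40, and of the 19, 14 did, against 60.1% of all unigenes tested. For 4 of the 21, all among the 19, every S40 library lay above every S36 library, against 7.21% of all unigenes tested. For none did every S40 library lie below, against 2.37%. The median difference was 0.33 over the 21 and over the 19, beside 0.12 over all unigenes tested, and over the 21 it ranged from -1.23 to 2.28. The ends of this range, ranks 7 and 6, hold libraries listed at 0. S36 replicate 3 and S40 replicate 1 were the closest libraries but for S45 replicates 2 and 3, although labelled as different stages. Without both, an alternative chosen after seeing the data, the median difference was 0.56 beside 0.17 over all unigenes tested.

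**Figure D4:**
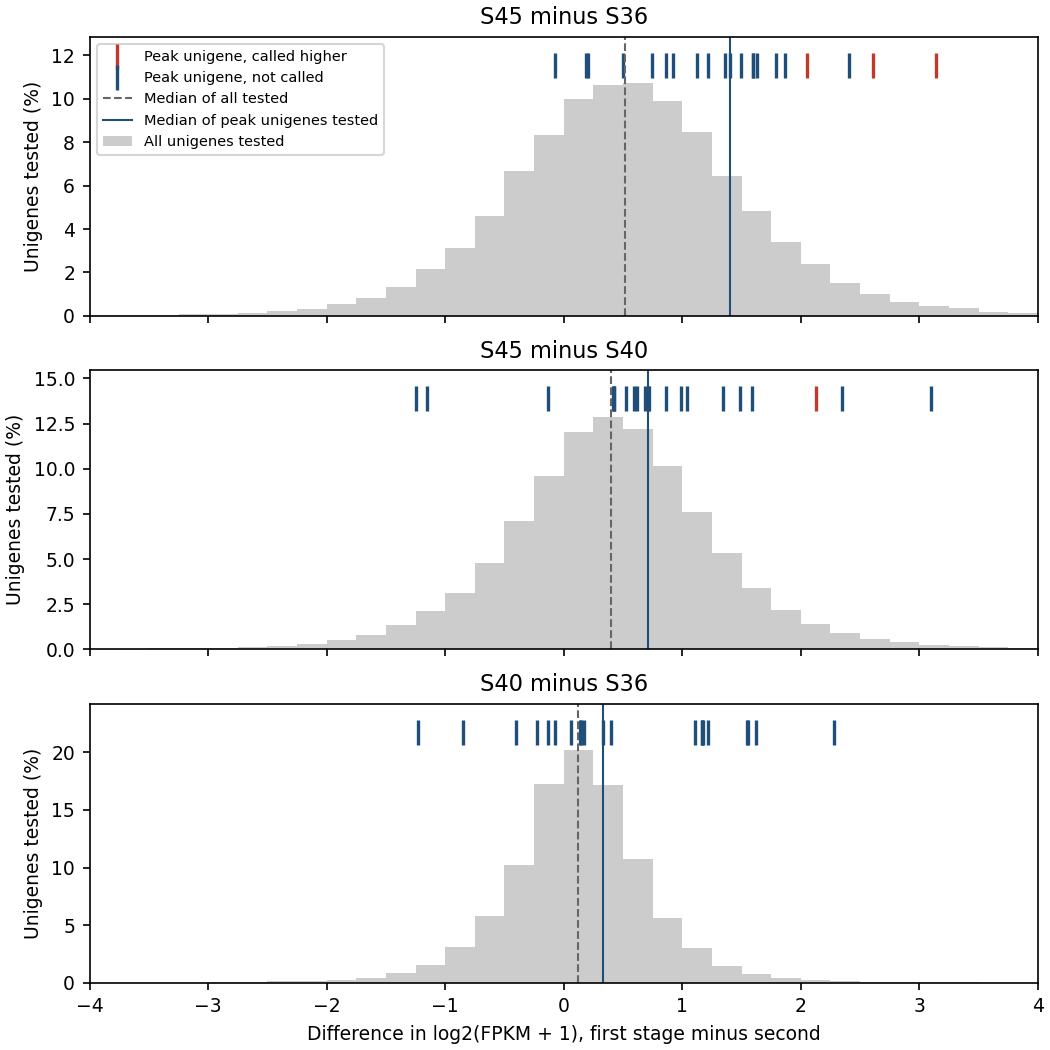
Differences in log2(FPKM + 1) between S45 and S36 (top), S45 and S40 (middle) and S40 and S36 (bottom): the grey bars give the share of all 98837 unigenes tested per bin, the ticks the 21 stage 43 peak unigenes tested, red where called, and the vertical lines the medians. The ticks of the 21 centre to the right of the grey bars in the top panel, with medians of 1.4 and 0.52, and closer to them in the middle and bottom panels.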

How the data were processed

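The authors deposited the FPKM of 12 libraries, rounded to 2 decimals, in a merged file with a column for each, and every column was used. Per the labels' protocols, poly-A RNA was reverse transcribed with random hexamers and sequenced as paired ends. Assembler, aligner and counting tool: not given in the sources used here. Read counts are unknown, so no interval for counting error is given. An FPKM is a share of its library, so it moves with the other transcripts. The members, lists and tests were chosen with earlier results of these data known.

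The rule was applied to the values as deposited with Python 3.11.15 (numpy 2.4.6, pandas 2.3.3, matplotlib 3.10.9). In R 4.3.3, limma 3.58.1 was fitted to log2(FPKM + 1) of S36, S40 and S45 with stage as the only term and a variance trend. S43 was left out of fit and filter because the rule holds its values above the rest; the other 9 libraries entered the rule through their highest value. S45 replicates 2 and 3 entered as their mean. The robust SD of their log2 ratio at 1000 FPKM or more was 0.029, beside 0.025 scaled from the noise at 10 to 30 FPKM. The next of the 66 pairs, S36 replicate 3 and S40 replicate 1, had 0.055, although labelled as different stages. Both were kept, and whether they share a source was not tested. The other 64 pairs had 0.156 to 0.646. Among these, S43 replicate 3 was closer to S45 replicate 1 (0.262) than to S43 replicates 1 (0.377) and 2 (0.47). S43 replicates 1 and 2 had 0.279. At 10 to 30 FPKM the pairs of S43 libraries had 1.48 to 2.02, against at most 1.04 for a pair within another stage. On simulated data in which 200 of 98837 unigenes differed between S45 and S36, the fit recovered 6% at a log2 change of 2 and 53% at a log2 change of 4, and it made 5 false calls. The noise simulated was independent between unigenes. The 200 were drawn from unigenes with a mean log2(FPKM + 1) above the value at 5 FPKM, and no other unigene differed. In the deposited data 6879 unigenes were called higher and 694 lower in this contrast, so the recovery there can differ from the simulated one.

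Unigenes were named by a rule: ranks 1 to 10 by mean S43 FPKM, the 5 with the largest ratio, the 3 on each side of each limit, and called members. IDs are given for ranks 1 and 2 and for at most 2 called per contrast and direction. Other ranks in the text (such as 11, 12, 14, 16, 20 and 23 to 25) were chosen after their values were seen.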

Additional observations from a re-analysis of the deposited data

How the results depend on the processing

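The count of 28 became 89 with median-ratio scaling, 73 at a ratio of 1.5 and 5 at a ratio of 3. It was 146 at a floor of 1 FPKM, 17 at a floor of 10 FPKM, and 28 to 213 when 1 library was left out. With S45 replicates 2 and 3 as their mean it was 35. Without both S43 replicate 3 and S45 replicate 1, an alternative chosen after seeing the data, it was 232. Where a scaling or a limit changed, the cause was not tested; fewer libraries or a lower limit can only add unigenes.

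The 3 members called between S45 and S36 (beside 6.96% of all unigenes tested called higher) became 0 with no filter (0.413%). The count was also 0 with median-ratio scaling (1.54%), with quantile normalization (1.02%) and in a fit of those stages alone, where none of the 98837 was called. It was 8 with S45 replicates 2 and 3 separate (14.2%) and 0 to 6 without 1 library (0.00229% to 7.22%). At a mean FPKM of at least 5 it was 7 of 11 tested (17.9%). These 7 include rank 13 and the identical ranks 11 and 12. Rank 13, with means of 3.95 at S36 and 4.06 at S40, passed this filter only through S45, so its call supports nothing. The 1 called between S45 and S40 (1.51%) became 0 with a pseudocount of 0.1 (0.588%), with no filter (0.221%) and with median-ratio scaling (0.561%). It was also 0 with quantile normalization (0.385%), with eBayes without trend (1.16%) and in a fit of those stages alone (0.0779%). It was 3 with S45 replicates 2 and 3 separate (5.26%), and 0 to 1 without 1 library (0.00115% to 0.956%). Without both S36 replicate 3 and S40 replicate 1, chosen after seeing the data, these counts were 1 (0.842%) and 0 (0.00571%). Between S40 and S36 it was 0 in all 23 alternatives, where almost no unigene was called (0% to 0.0253%). The median difference between S40 and S36 was 1.11 at a mean FPKM of at least 5, where 11 of the 28 were tested. That between S45 and S36 was 1.9 with a pseudocount of 0.1, 0.98 under median-ratio scaling and 0.845 under quantile normalization, and that between S45 and S40 was 0.158 with quantile normalization. The median of the members stayed above that of all unigenes tested in each of 23 alternatives per contrast. The variance model, stages fitted and fold threshold cannot move these medians, so those alternatives are no check. Leaving out a library outside the contrast moves the medians only through the filter. Ranks 1, 2 and 3 passed between S45 and S36 in 16, 14 and 13 of 23 alternatives, with limma adjusted p from 0.00878 to 0.215, 0.0102 to 0.225 and 0.0113 to 0.238; rank 2 ran from 0.0179 to 0.422 between S45 and S40.

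Same-numbered libraries of S36, S40 and S45 did not deviate together: the correlation of their deviations from the stage means was -0.047 to 0.13 in 9 pairs, above 0.1 in 1, so the numbers name libraries and do not pair them. With the replicate block, in a fit with S45 replicates 2 and 3 separate, 8 members were called between S45 and S36 and 2 between S45 and S40, beside 10.7% and 2.45% of all unigenes called higher. Depth limits what can be said of the lowest of the 28, since the fragments behind 5 to 10 FPKM are not known.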
